A study of Mus musculus with 8 samples.

Results

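The genes described here serve amino acid uptake, serine and one-carbon metabolism, the ATF4 transcription factor axis, glutamate, proline, aspartate and branched-chain amino acid metabolism, the methionine cycle and polyamine synthesis. They were 38 genes listed by name, of 25124 genes in the count table, and all 38 were in the table and were tested. Growing T cells take up amino acids through membrane carriers and build serine, which gives 1-carbon units to folate for purine and thymidylate synthesis. ATF4 is a transcription factor made when amino acids run short or translation is slowed, and it switches on transporters, asparagine synthetase and the serine enzymes. Methionine supplies S-adenosylmethionine for methylation and, after decarboxylation, for the polyamines spermidine and spermine.

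The cells were spleen CD4 T cells of mice carrying a GFP reporter of KLF2, a transcription factor of resting T cells, and an RFP reporter of FOXP3, the regulatory T cell factor. All lacked FOXP3 and were CD44hi, a mark of antigen-experienced cells, and were divided by the KLF2 reporter into KLF2+ and KLF2- cells. Both populations were kept for 48 h, either with antibodies to CD3 (2.5 µg/mL) and CD28 (1.25 µg/mL), which engage the T cell receptor and its costimulator, or without stimulus. The 4 groups were KLF2+ stimulated, KLF2+ unstimulated, KLF2- stimulated and KLF2- unstimulated cells, with 2 libraries each, numbered 1 and 2 in KLF2+ cells and 3 and 4 in KLF2- cells. Mouse strain, age and sex are not given in the sources used here, and the labels do not say whether numbered libraries came from separate mice, so p-values measure the spread between these libraries, which may be technical.

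The libraries held 33.9 to 45.6 M mapped tags, of which 7.96 to 80.3% lay in exons, giving 2.99 to 36.6 M exon reads. Reads over olfactory and vomeronasal receptor genes, which T cells do not use, gave a background density per kb, and this background made up 0.401 to 20.1% of exon reads, least in stimulated KLF2+ libraries and most in stimulated KLF2- replicate 4. Levels within a gene are given as CPM (exon reads per megaread of the library after TMM scaling). Every comparison was also fitted after subtracting the background and scaling from genes of at least 50 CPM, which is called the corrected fit. It thus differs from the fit as deposited in both reads and scaling. The scaling factors spread from 0.626 to 1.54 as deposited and from 0.955 to 1.04 in the corrected fit. For comparison, the median log2 fold change of 10 T cell identity genes such as Cd3e and Cd4 between stimulated KLF2+ and stimulated KLF2- cells was 1.60, and 0.38 in the corrected fit. Cd4 lay between 475 and 1046 CPM in all 8 libraries and Cd8a at 2.45 CPM or less. The CD8 T cell genes Cd8a and Cd8b1 together had 26.5 and 22.5 CPM in stimulated KLF2+ cells, against 11.4 and 13.0 CPM in unstimulated ones. In KLF2- cells their sum was 11.8 and 22.2 CPM with stimulus, against 15.0 and 13.1 CPM without it. Their part in the members' values was not tested.

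Summed CPM of 5 activation and division genes (Mki67, Top2a, Il2ra, Tfrc, Ccnb1) was 3534 and 3435 in stimulated KLF2+ cells, against 209 and 162 in unstimulated ones. In stimulated KLF2- cells it was 901 in replicate 3 and 153 in replicate 4, against 162 and 159 in unstimulated ones. Stimulated KLF2- replicate 4 was thus at the unstimulated level of these genes, and calls and fold changes that use it are also given without it. Macrophage and monocyte genes also differed: the sum of 12 of them was 55.1 and 91.6 CPM in stimulated KLF2+ cells, against 887 and 1654 CPM in unstimulated ones, and 54.7 to 102 CPM in the 4 KLF2- libraries. Lyz2, the macrophage lysozyme, made up most of it, with 32.7 and 60.4 CPM in stimulated KLF2+ cells and 705 and 1376 CPM in unstimulated ones. In whole-population RNA such as this, fewer cells of a type and less RNA per cell cannot be told apart.

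Most of these genes rose in stimulated KLF2+ cells. By edgeR's quasi-likelihood F test, with p-values adjusted by Benjamini-Hochberg over 19146 genes and called under 0.05, 29 members rose, against 19.7% of all genes tested. With the 1 member that fell, 30 of 38 were called, against 37.1% of genes. The median log2 fold change was 1.52 over the members and -0.25 over all genes tested. In the corrected fit 17 rose, against 12.7% of 15292 genes, and 18 of 38 were called, against 29.1%, with medians of 1.20 and -0.24. Both stimulated libraries lay above both unstimulated ones in CPM for 35 members, against 35.2% of all genes tested, below them for 1 (Slc7a11), against 40.4%, and overlapped for 2 (Slc1a5 and Trib3). Psat1, Shmt1, Mthfd1l, Mthfd2, Asns, Got1, Got2, Ahcy and Odc1, 9 in all, were called higher in each of the 17 alternative settings. The count of calls rested on single libraries: it was 12 without KLF2+ unstimulated replicate 1, where 10.4% of all genes were called, and 18 without KLF2+ stimulated replicate 2, where 11.9% were. Over the same comparison 11 of 12 macrophage, 3 of 5 dendritic cell and 2 of 4 NK cell genes fell, and their part in the members' values was not tested.

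**Figure D1:**
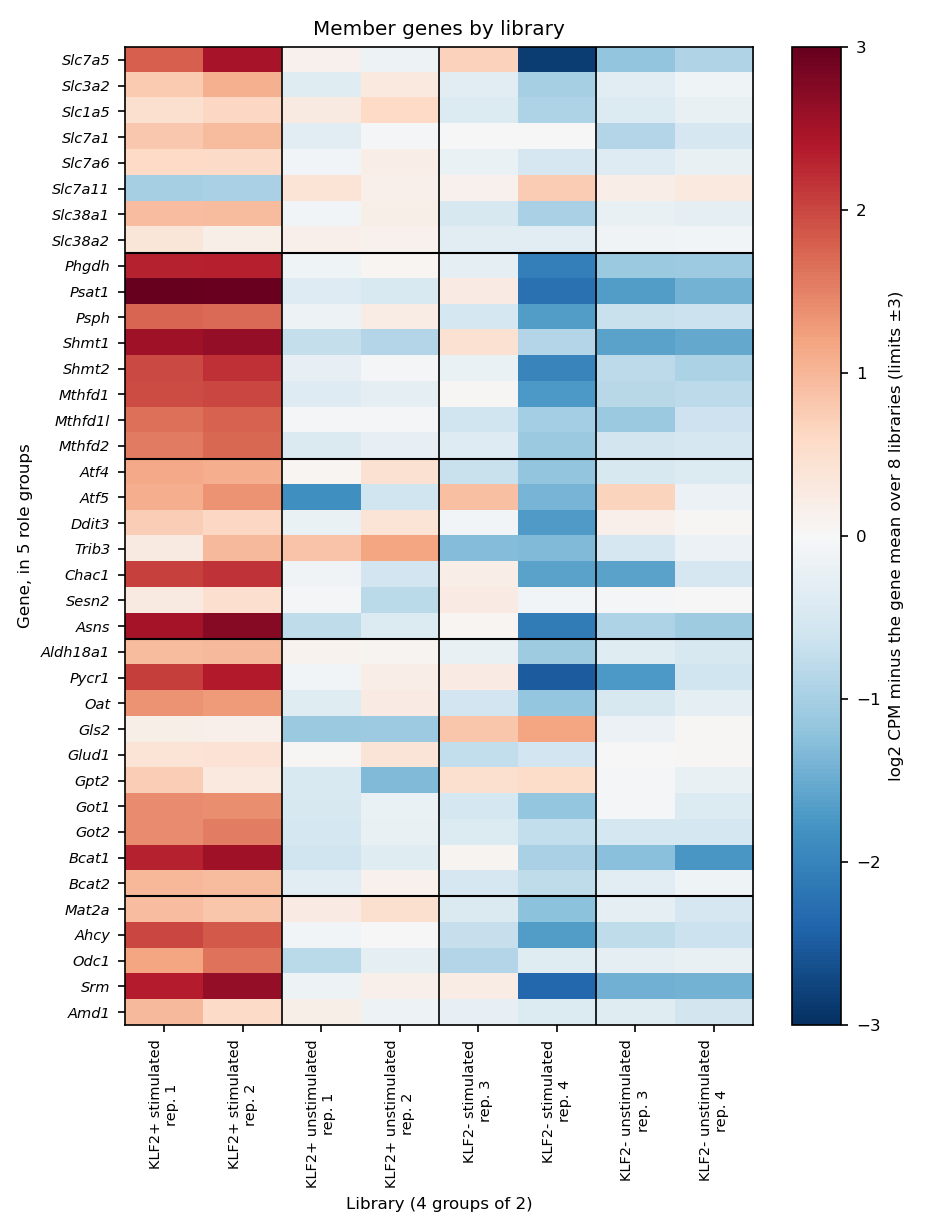
Level of the 38 genes in each of the 8 libraries, as log2 CPM minus the gene's mean over libraries, with genes in rows by role and libraries in columns by group. The serine and one-carbon rows are highest in the 2 stimulated KLF2+ libraries, where Psat1 stood at 543 and 529 CPM, and stimulated KLF2- replicates 3 and 4 differ from each other.

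The serine and one-carbon enzymes rose together: all 8 were called, and all 8 also rose in the corrected fit, against 19.7% and 12.7% of all genes. Phgdh (RefSeq NM_016966, mm10 chr3:98313171-98339969, - strand), which commits a glycolytic intermediate to serine synthesis, had 652 and 655 CPM in stimulated KLF2+ cells, against 119.6 and 135 CPM in unstimulated ones. Psat1 (RefSeq NM_177420, mm10 chr19:15905123-15925059, - strand), the aminotransferase that follows it, had 543 and 529 CPM in stimulated KLF2+ cells, against 52.4 and 49.4 CPM in unstimulated ones. Psph, the phosphatase that releases serine, had 195 and 188 CPM in stimulated KLF2+ cells, against 52.0 and 67.8 CPM in unstimulated ones. In these 3 genes the libraries of a group lay close together and the groups were far apart. Shmt1 (RefSeq NM_009171, mm10 chr11:60788897-60811265, - strand), the cytosolic serine hydroxymethyltransferase that moves a 1-carbon unit from serine to folate, had 159 and 169 CPM in stimulated KLF2+ cells, against 16.6 and 14.8 CPM in unstimulated ones. Its mitochondrial counterpart Shmt2 had 526 and 609 CPM in stimulated KLF2+ cells, against 112 and 129 CPM in unstimulated ones. Both forms were several-fold higher with stimulus.

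Mthfd1, the cytosolic enzyme that interconverts 1-carbon folates, had 276 and 284 CPM in stimulated KLF2+ cells, against 54.3 and 58.7 CPM in unstimulated ones. Mthfd2, the mitochondrial dehydrogenase of the same chain, had 277 and 310.3 CPM in stimulated KLF2+ cells, against 69.7 and 79.1 CPM in unstimulated ones. Mthfd1l, which makes formate for export from mitochondria, had 151 and 165 CPM in stimulated KLF2+ cells, against 46.3 and 46.8 CPM in unstimulated ones. None of the 8 genes had a stimulated library within the unstimulated range. Psat1 rose by a log2 fold change of 3.40 ± 0.59 and by 2.88 ± 0.62 in the corrected fit (SE, n = 2 libraries per group; edgeR adjusted p = 0.0039 and 0.016). Shmt1 rose by 3.39 ± 0.36 and by 2.97 ± 0.39 corrected (edgeR adjusted p = 0.00057 and 0.0044). The 8 changes ran from 1.67 (Psph) to 3.40 (Psat1), with edgeR adjusted p from 0.00057 to 0.007, and from 1.17 (Psph) to 2.97 (Shmt1) in the corrected fit. Without KLF2+ unstimulated replicate 1 only Psat1, Shmt1, Mthfd1l and Mthfd2, 4 of 8, remained called.

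In deposited TPM, a per-length scale on which genes can be compared, the 8 serine and one-carbon enzymes summed to 832 and 855 in stimulated KLF2+ cells, against 291 and 238 in unstimulated ones. In KLF2- cells the sums were 403 and 173 with stimulus, against 205 and 203 without it. The amino acid transporters had no such gap, at 343 and 381 TPM in stimulated KLF2+ cells, against 429 and 381 TPM in unstimulated ones. All 38 genes summed to 2319.8 and 2436 TPM in stimulated KLF2+ cells, against 1525 and 1338 TPM in unstimulated ones.

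**Figure D2:**
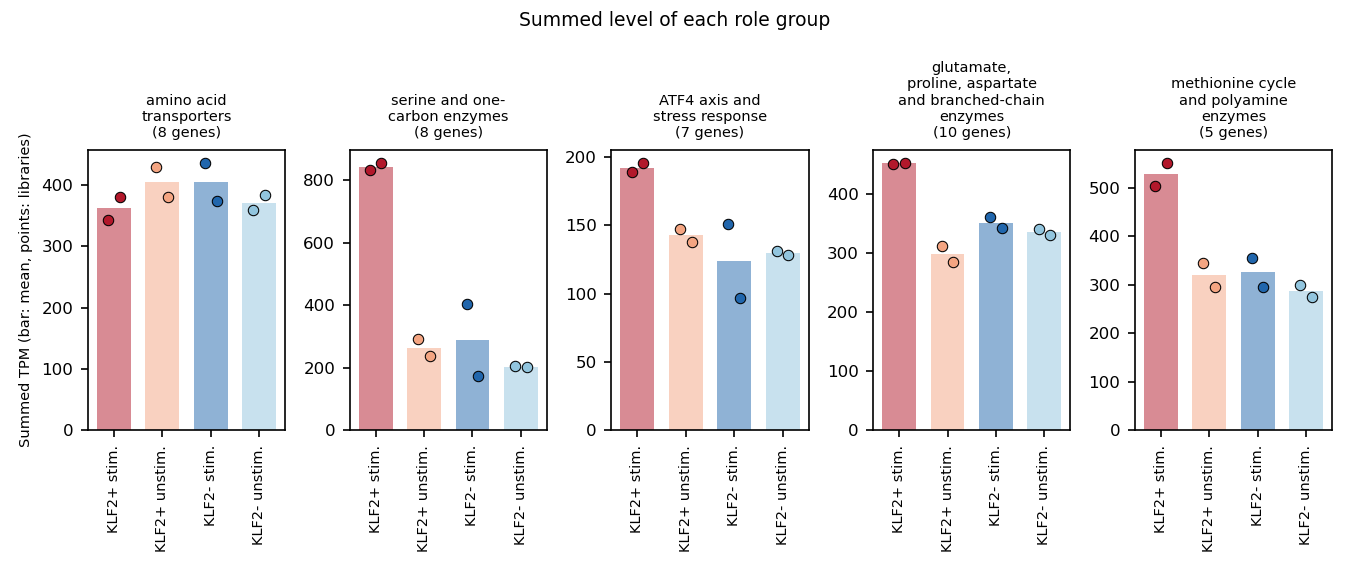
Summed deposited TPM of the genes of each role group, with 1 point per library and bars at the group mean (n = 2), the axes starting at 0. The serine and one-carbon panel shows 832 and 855 TPM in stimulated KLF2+ cells and 173 to 403 TPM in the other 6 libraries, while the transporter panel shows no such gap.

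Among enzymes of glutamate, proline, aspartate and branched-chain amino acids, 9 of 10 rose, against 19.7% of all genes. In the corrected fit 4 of 10 did (Oat, Got1, Got2, Bcat2), against 12.7%. Got1, the cytosolic aspartate aminotransferase, had 216 and 214 CPM in stimulated KLF2+ cells, against 58.5 and 71.0 CPM in unstimulated ones. Got2, its mitochondrial partner, which feeds aspartate to nucleotide synthesis, had 521 and 564 CPM in stimulated KLF2+ cells, against 137 and 169 CPM in unstimulated ones. Both aminotransferases rose, by 1.73 ± 0.24 for Got1 and 1.83 ± 0.22 for Got2 on the log2 scale (edgeR adjusted p = 0.0017 and 0.00092; 1.23 and 1.31 corrected). Oat, ornithine aminotransferase, had 331 and 315 CPM in stimulated KLF2+ cells, against 102 and 154 CPM in unstimulated ones. Bcat2, the mitochondrial branched-chain aminotransferase, had 90.2 and 87.6 CPM in stimulated KLF2+ cells, against 36.2 and 49.6 CPM in unstimulated ones. Its cytosolic counterpart Bcat1 had 89.7 and 106 CPM in stimulated KLF2+ cells, against 12.1 and 14.1 CPM in unstimulated ones. Bcat1 rose by 2.90 ± 0.34 (edgeR adjusted p = 0.00083), but the background expected at its length was 62.6% and 25.2% of its reads in the unstimulated libraries, and it was not called in the corrected fit (adjusted p = 0.063).

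Aldh18a1, which opens proline synthesis from glutamate, had 223 and 226 CPM in stimulated KLF2+ cells, against 125 and 123 CPM in unstimulated ones. Its log2 fold change of 0.86 ± 0.26 was called (edgeR adjusted p = 0.029), and the corrected 0.33 was not (0.25). Pycr1, which closes the proline pathway, had 12.9 and 16.0 CPM in stimulated KLF2+ cells, against 2.93 and 3.55 CPM in unstimulated ones. Gls2, a glutaminase, had 7.06 and 6.94 CPM in stimulated KLF2+ cells, against 2.93 and 2.95 CPM in unstimulated ones, and Gpt2, the mitochondrial alanine aminotransferase, had 41.5 and 30.2 CPM in stimulated KLF2+ cells, against 18.1 and 9.84 CPM in unstimulated ones. These 3 genes rose as deposited at low levels, and none was called in the corrected fit (edgeR adjusted p from 0.056 to 0.16). Glud1, glutamate dehydrogenase, was the exception in this role, with 251 and 254 CPM in stimulated KLF2+ cells, against 193 and 245 CPM in unstimulated ones, and was not called (log2 fold change 0.20 ± 0.20, edgeR adjusted p = 0.41).

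Of the methionine cycle and polyamine enzymes, 4 of 5 rose, against 19.7% of all genes, and 3 of 5 (Ahcy, Odc1, Srm) in the corrected fit, against 12.7%. Odc1 (RefSeq NM_013614, mm10 chr12:17544873-17551502, + strand), ornithine decarboxylase and the rate-limiting enzyme of polyamine synthesis, had 512 and 699 CPM in stimulated KLF2+ cells, against 128 and 185 CPM in unstimulated ones. Srm (RefSeq NM_009272, mm10 chr4:148591513-148594619, + strand), spermidine synthase, had 286 and 345 CPM in stimulated KLF2+ cells, against 49.9 and 61.8 CPM in unstimulated ones. Ahcy, which clears the by-product of methylation, had 193 and 173 CPM in stimulated KLF2+ cells, against 46.0 and 48.4 CPM in unstimulated ones. Odc1 and Srm, the pathway's first and next synthetic enzymes, rose by 1.95 ± 0.28 and 2.50 ± 0.57 on the log2 scale (edgeR adjusted p = 0.0018 and 0.011). In the corrected fit the changes were 1.45 ± 0.28 and 1.99 ± 0.58 (edgeR adjusted p = 0.012 and 0.039), and Srm lost its call without KLF2+ unstimulated replicate 1. Mat2a, which makes S-adenosylmethionine, had 821 and 772 CPM in stimulated KLF2+ cells, against 517 and 601 CPM in unstimulated ones, and was not called (0.51 ± 0.28, edgeR adjusted p = 0.16). Amd1, S-adenosylmethionine decarboxylase, had 155 and 118 CPM in stimulated KLF2+ cells, against 89.6 and 71.8 CPM in unstimulated ones. Amd1 rose by 0.76 as deposited but not in the corrected fit (0.22, edgeR adjusted p = 0.51). In the count table Amd2 (chr10:40287465-40302186, - strand) spans nearly the same bases as Amd1 (chr10:40287458-40302188, - strand). It is thus not a separate locus, and both entries could share reads, as could near copies of Amd1 in the annotation.

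The transporters moved unevenly: 4 of 8 rose and 1 fell, against 19.7% and 17.4% of all genes. In the corrected fit 1 rose (Slc7a1) and 1 fell (Slc1a5), against 12.7% and 16.4% of all genes. Slc7a5, the light chain that carries large neutral amino acids such as leucine, had 166 and 267 CPM in stimulated KLF2+ cells, against 52.6 and 43.5 CPM in unstimulated ones. Slc3a2, the heavy chain it pairs with, had 339 and 408 CPM in stimulated KLF2+ cells, against 152 and 239.5 CPM in unstimulated ones. Slc7a5 varied between the 2 stimulated libraries, and its log2 fold change was 2.17 ± 0.73 (edgeR adjusted p = 0.043), against 1.68 ± 1.13 corrected (adjusted p = 0.28), not called. Slc7a1, a carrier of arginine and lysine, had 60.6 and 66.4 CPM in stimulated KLF2+ cells, against 27.2 and 33.1 CPM in unstimulated ones, and rose by 1.07 ± 0.22 (edgeR adjusted p = 0.0071; 0.79 corrected, adjusted p = 0.046). Slc38a1, a sodium-coupled carrier of glutamine and other neutral amino acids, had 370.5 and 374 CPM in stimulated KLF2+ cells, against 184 and 219 CPM in unstimulated ones. It rose as deposited (0.88) and was not called in the corrected fit (0.38, edgeR adjusted p = 0.057).

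The glutamine carriers Slc1a5 and Slc38a2 were not called as deposited. Slc1a5, which exchanges glutamine and other neutral amino acids, had 530.4 and 586 CPM in stimulated KLF2+ cells, against 457 and 570.1 CPM in unstimulated ones, and Slc38a2, a relative of Slc38a1, had 398 and 348 CPM in stimulated KLF2+ cells, against 346 and 342 CPM in unstimulated ones. Slc1a5 had a log2 fold change of 0.12 ± 0.25, not called (edgeR adjusted p = 0.7), while in the corrected fit it fell by 0.41 on the log2 scale (adjusted p = 0.044). Slc7a6, a light chain that exchanges arginine and glutamine with Slc3a2, had 87.0 and 85.5 CPM in stimulated KLF2+ cells, against 54.4 and 66.1 CPM in unstimulated ones, and was not called. Slc7a11 (RefSeq NM_011990, mm10 chr3:50364936-50443613, - strand), the cystine importer of the cystine-glutamate exchanger, went the other way, with 7.48 and 7.61 CPM in stimulated KLF2+ cells, against 19.8 and 16.5 CPM in unstimulated ones. Slc7a11 fell as deposited (log2 fold change -1.26 ± 0.32, edgeR adjusted p = 0.016), and the corrected change was -1.53 ± 0.50 (adjusted p = 0.053), not called. Its transcript is long and its reads few, and expected background was 35.7% and 11.4% of its reads in stimulated and 45.1% and 25.4% in unstimulated KLF2+ libraries.

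**Figure D3:**
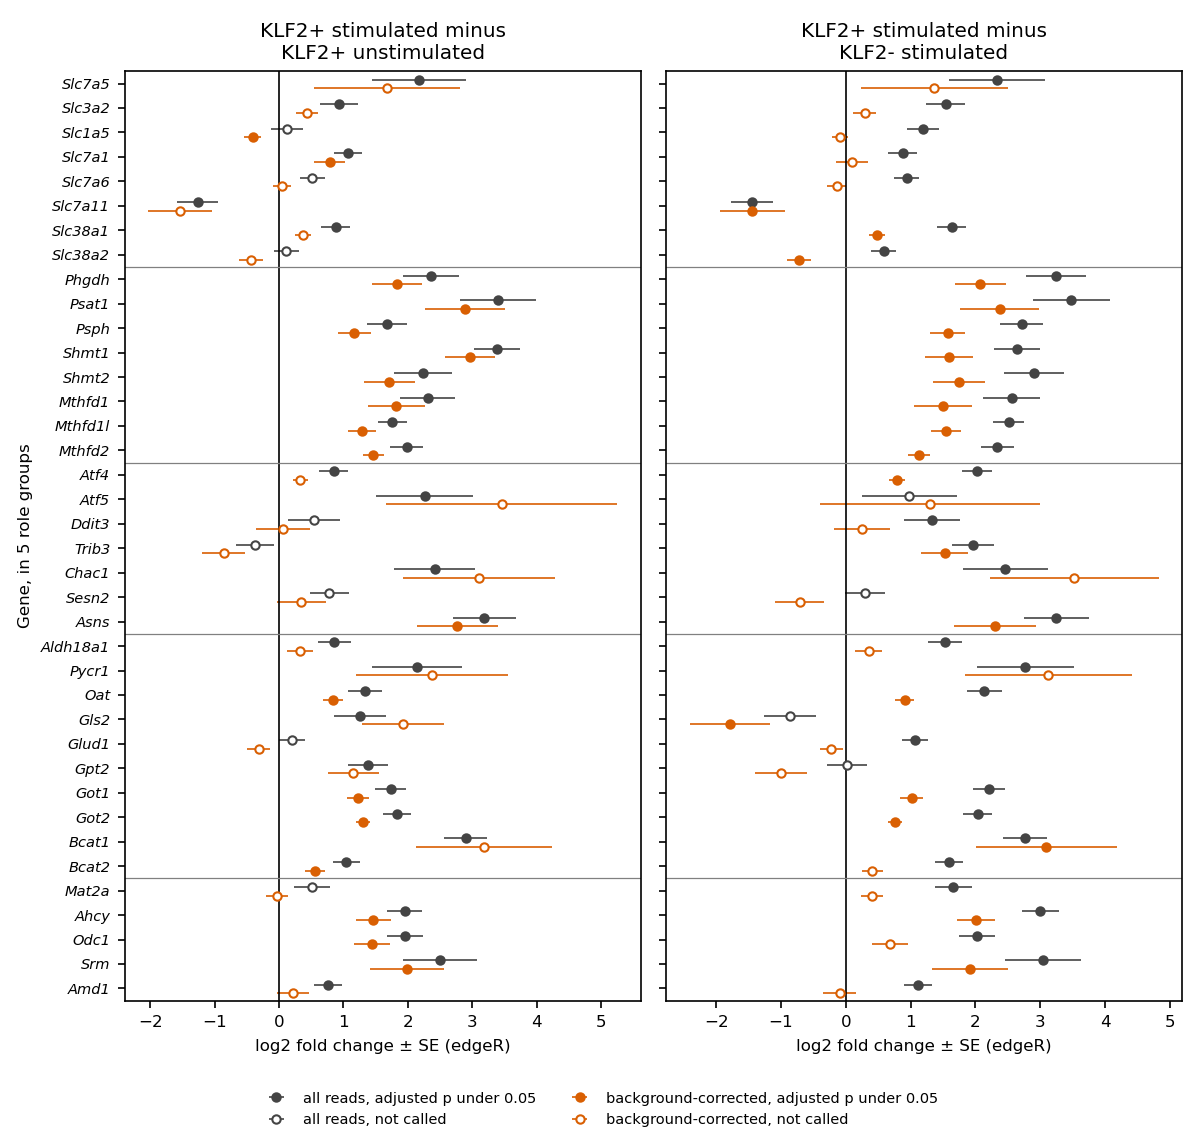
Log2 fold change of each of the 38 genes with its SE as deposited and in the corrected fit, in the response of KLF2+ cells and between stimulated KLF2+ and KLF2- cells, with filled marks for genes called at an adjusted p under 0.05. In the KLF2+ response Psat1 is at 3.40 and 2.88 corrected, and Slc7a11 is the member called lower as deposited.

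In the ATF4 axis 4 of 7 genes rose, against 19.7% of all genes, and 1 of 7 (Asns) in the corrected fit, against 12.7%. Asns (RefSeq NM_012055, mm10 chr6:7675165-7693209, - strand), asparagine synthetase, had 158 and 186 CPM in stimulated KLF2+ cells, against 16.6 and 21.0 CPM in unstimulated ones, and rose by 3.19 ± 0.49 (edgeR adjusted p = 0.0025; 2.77 ± 0.63 corrected, adjusted p = 0.018). Atf4 itself had 245 and 237 CPM in stimulated KLF2+ cells, against 116 and 152 CPM in unstimulated ones, a log2 fold change of 0.85 ± 0.23 (edgeR adjusted p = 0.019), and its corrected 0.33 ± 0.12 was not called (adjusted p = 0.074). ATF4 is controlled largely at translation, which RNA levels do not show. Chac1, which degrades glutathione, had 9.52 and 10.4 CPM in stimulated KLF2+ cells, against 2.14 and 1.56 CPM in unstimulated ones, and Atf5, a relative of ATF4, had 4.30 and 5.10 CPM in stimulated KLF2+ cells, against 0.563 and 1.33 CPM in unstimulated ones. Both rose as deposited, but expected background equalled or exceeded their reads in some libraries, and neither was called in the corrected fit. Ddit3, the stress factor CHOP, had 37.3 and 34.2 CPM in stimulated KLF2+ cells, against 19.5 and 29.4 CPM in unstimulated ones, and was not called (0.55 ± 0.41, edgeR adjusted p = 0.29). Trib3, a pseudokinase induced by ATF4 and CHOP, had 21.2 and 34.4 CPM in stimulated KLF2+ cells, against 31.8 and 40.0 CPM in unstimulated ones, with overlapping groups and no call (-0.37 ± 0.30, adjusted p = 0.32). Sesn2, a leucine sensor that restrains mTORC1, lay between 11.3 and 27.8 CPM in all 8 libraries and was not called by edgeR on deposited counts in any comparison (0.78 ± 0.31 here, adjusted p = 0.067). It rose in the fit with the replicate number as a block (adjusted p = 0.0094).

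The C/EBP-ATF composite site is the DNA element that ATF4 dimers bind, and its core TGATGNAA was searched on both strands of RefSeq promoters (GRCm38.p6, 250 bases before to 50 after each start). The table held 33 of the 38 genes, with 39 promoters, and lacked Slc1a5, Slc7a5, Srm, Slc38a1 and Gls2. Of the 39 promoters 6, 15.4%, held the core, against 1304 of 32851 promoters in all (3.97%). The list of genes was drawn up to include ATF4 targets, so this share is not independent of that choice. The 6 windows, shown because they hold the element by which ATF4 is known to act, are written 5′ to 3′ on the gene's strand with the core, on either strand, in capitals.
Asns: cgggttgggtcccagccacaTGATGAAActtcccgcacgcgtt
Chac1: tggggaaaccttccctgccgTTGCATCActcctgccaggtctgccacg
Pycr1: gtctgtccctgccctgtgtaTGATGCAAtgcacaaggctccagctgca
Got1: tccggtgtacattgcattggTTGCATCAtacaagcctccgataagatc
Trib3: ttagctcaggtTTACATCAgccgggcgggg
Slc7a11: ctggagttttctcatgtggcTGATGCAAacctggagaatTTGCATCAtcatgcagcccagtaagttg
They lie at chr6:7693210-7693252 (- strand) for Asns, chr2:119351029-119351076 (+ strand) for Chac1, chr11:120643824-120643871 (- strand) for Pycr1, chr19:43524680-43524727 (- strand) for Got1, chr2:152344028-152344057 (- strand) for Trib3 and chr3:50443633-50443699 (- strand) for Slc7a11. The core lay 23 bases before the start in Asns, 193 in Chac1, 103 in Pycr1 and 102 in Got1, 66 and 47 in Slc7a11, which held 2, and 14 bases after the start in Trib3. Of these genes Asns, Chac1, Pycr1 and Got1 rose in stimulated KLF2+ cells as deposited, Asns and Got1 also in the corrected fit, Trib3 was not called and Slc7a11 fell as deposited. The E-box CACGTG, the letters that MYC and its relatives bind, was in 1 of 39 member promoters (2.56%, Aldh18a1), against 7.15% of all. A match describes these letters only and is no measure of binding.

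Pairs of enzymes that do the same step in cytosol and mitochondria, compared in deposited TPM, are given as ratios, with no test. The ratio of Shmt2 (mitochondrial) to Shmt1 (cytosolic) was 2.98 and 3.23 in stimulated KLF2+ cells, against 6.05 and 7.86 in unstimulated ones. In KLF2- cells it was 2.81 and 2.06 with stimulus, against 7.84 and 6.52 without. Both stimulated libraries were thus lower than both unstimulated ones in each population. Bcat2 over Bcat1 was 4.49 and 3.67 in stimulated KLF2+ cells, against 13.4 and 15.7 in unstimulated ones, where expected background was 62.6% and 25.2% of the Bcat1 reads. Got2 over Got1 was 2.08 and 2.27 in stimulated KLF2+ cells, against 2.02 and 2.05 in unstimulated ones. The Slc3a2 heavy chain over its Slc7a5 light chain was 2.78 and 2.09 in stimulated KLF2+ cells, against 3.95 and 7.52 in unstimulated ones. Odc1 over Srm was 0.931 and 1.06 in stimulated KLF2+ cells, against 1.34 and 1.56 in unstimulated ones, and 0.990 and 8.48 in stimulated KLF2- cells, against 4.70 and 4.85 in unstimulated ones, with replicate 3 apart from replicate 4.

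**Figure D4:**
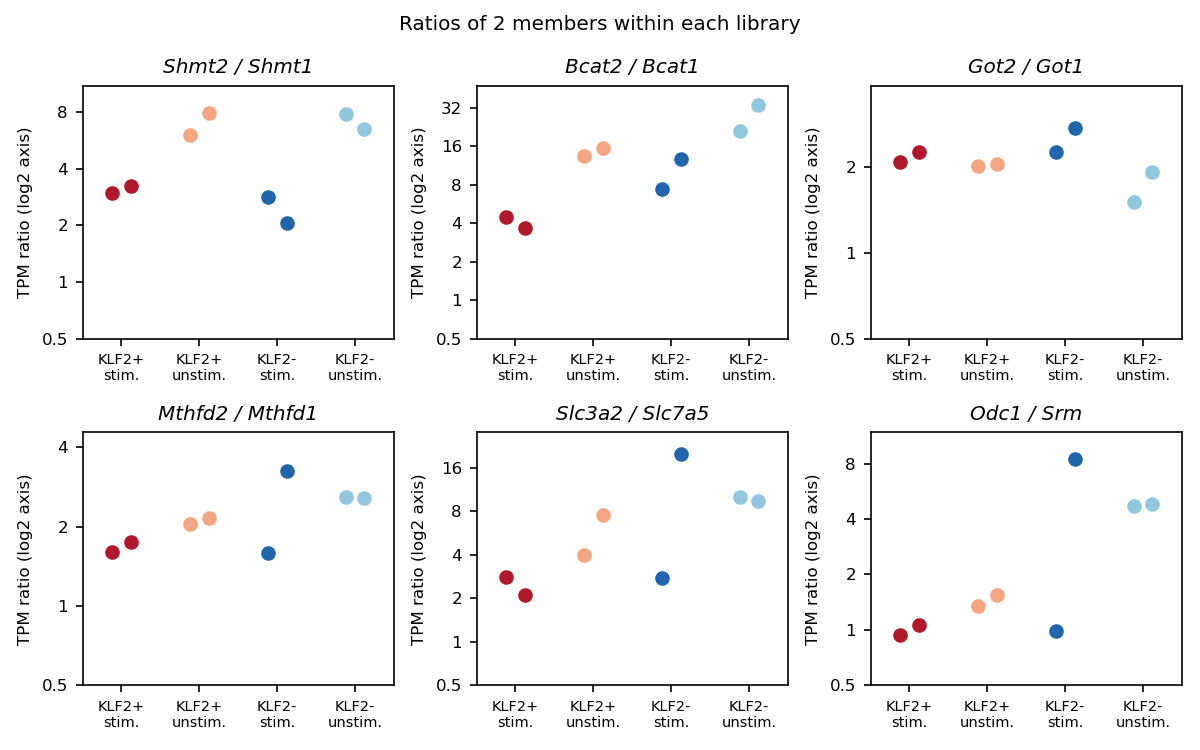
Ratios of deposited TPM for enzyme or transporter pairs, 1 point per library, on a log axis. Shmt2 over Shmt1 sits at 2.98 and 3.23 in stimulated KLF2+ cells and 6.05 and 7.86 in unstimulated ones, while Got2 over Got1 stays between 1.51 and 2.76 in all 8 libraries.

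Among 105 other genes of the same pathways, all tested, 43 rose and 5 fell with stimulation of KLF2+ cells, and 19 of 100 tested rose and 6 fell in the corrected fit, beside 19.7% and 12.7% of all genes called higher. Serine, glycine and folate genes rose in 10 of 21, and polyamine genes in 11 of 17 with 1 lower. The 17 polyamine genes include Amd2, which lies over the member Amd1 and is not a separate locus. Of 15 other amino acid transporters 0 rose and 3 fell by edgeR, where 17.4% of all genes fell (5 of the 15, and 51.9% of all genes, had an unadjusted p under 0.05 in either direction), with a median log2 fold change of -0.18. Tyms, thymidylate synthase, which uses the 1-carbon unit for DNA, had 303 and 278 CPM in stimulated KLF2+ cells, against 22.3 and 27.5 CPM in unstimulated ones, and rose by 3.54 ± 0.46 (edgeR adjusted p = 0.0013; 3.18 corrected). Azin1, which protects ornithine decarboxylase from its antizyme, rose by 1.41 ± 0.26 and Sms, spermine synthase, by 1.18 ± 0.24, both also called in the corrected fit. Cebpb, a partner of ATF4 at the composite site, rose by 1.77 ± 0.35 (edgeR adjusted p = 0.0069; 1.29 corrected, adjusted p = 0.038). The lysosomal amino acid sensor Slc38a9 fell by 0.95 on the log2 scale, with 22.3 and 19.3 CPM in stimulated KLF2+ cells, against 46.2 and 34.1 CPM in unstimulated ones.

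In KLF2- cells the same stimulus gave no called member in either fit, and 0.0% of all genes were called by edgeR (7 members, and 14.6% of all genes, had an unadjusted p under 0.05, and DESeq2 called 1 of 35 members, Shmt1, and 0.631% of genes). The corrected fit also called 0.0% of genes, with 7 members and 13.4% of genes under that p. The members' median log2 fold change was -0.04, beside 0.06 over all genes, and 0.32 beside 0.13 in the corrected fit. Both stimulated libraries lay above both unstimulated ones for 5 members, against 31.2% of all genes, and below them for 10, against 30.2%, and 23 overlapped. The 2 stimulated libraries went different ways. Replicate 3 lay above both unstimulated KLF2- libraries for 23 members, against 41.8% of all genes, replicate 4 lay below both for 29, against 43.1%, and 15 members showed both patterns, against 7.61%. Replicate 3 was above replicate 4 for 31 members, against 44.9% of all genes. In CPM, the median log2 shift over members from the unstimulated mean was 0.18 in replicate 3 and -0.67 in replicate 4. It was 1.64 and 1.48 in the 2 stimulated KLF2+ libraries. In deposited TPM the members summed to 1706 in replicate 3 and 1282 in replicate 4. The unstimulated KLF2- libraries had sums of 1334 and 1321 TPM. Replicate 4 was thus only slightly below them in summed TPM, so the size of its fall depends on the measure used. Expected background was also largest in replicate 4, where it was 99.7% of the Slc7a5 reads, 57.3% of the Asns reads and 28.9% of the Psat1 reads.

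**Figure D5:**
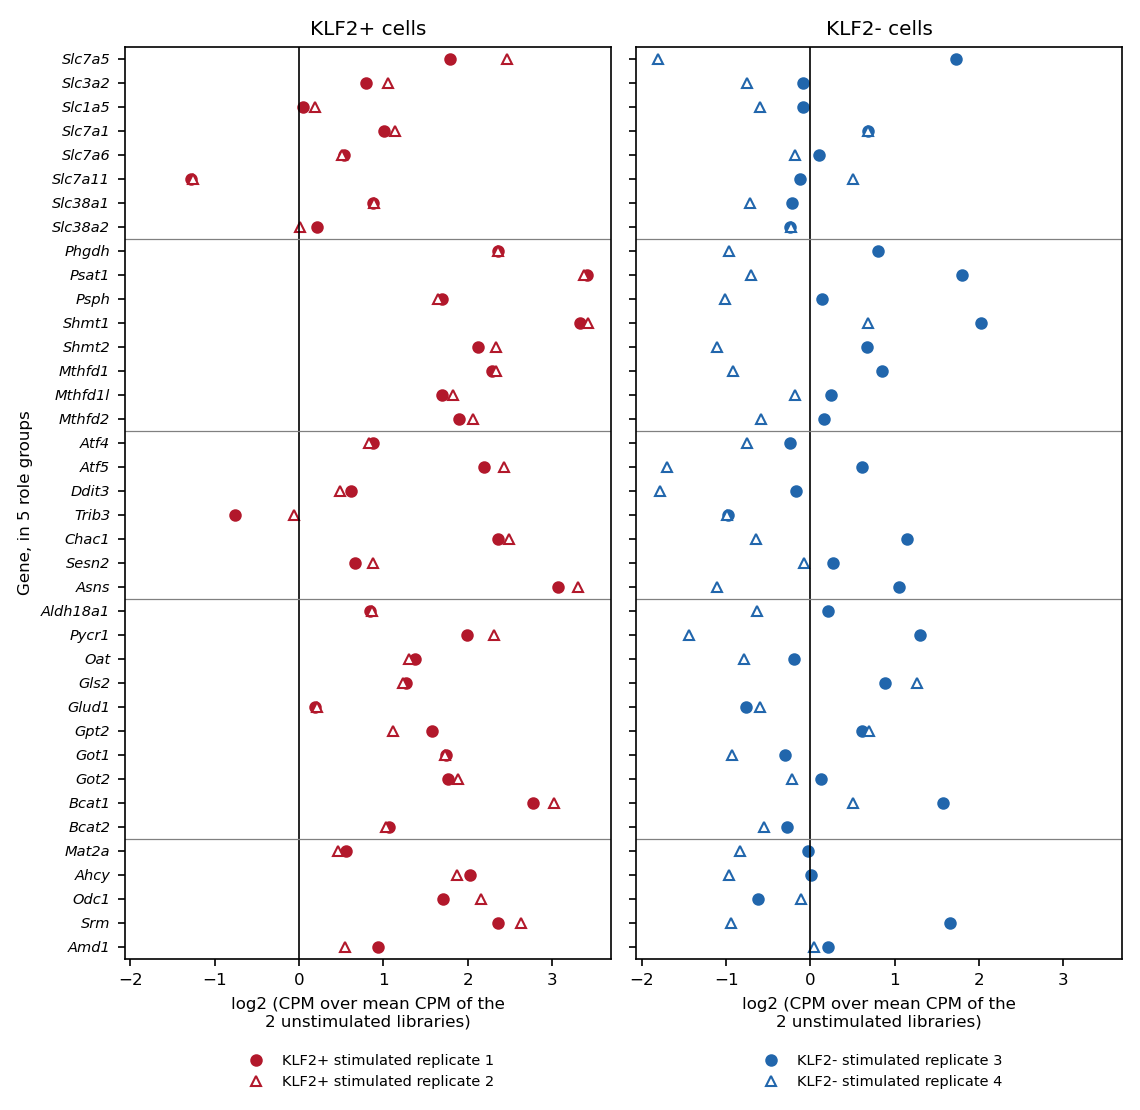
Log2 ratio of each stimulated library's CPM to the mean CPM of the 2 unstimulated libraries of its population, with genes in rows by role, KLF2+ cells at left and KLF2- cells at right. The 2 KLF2+ libraries lie together (medians 1.64 and 1.48), whereas KLF2- replicate 3 (median 0.18) lies right of replicate 4 (median -0.67) for 31 of 38 genes.

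The serine and one-carbon enzymes showed this split. Psat1 had 81.1 and 14.4 CPM in stimulated KLF2- cells, against 21.4 and 25.4 CPM in unstimulated ones. Phgdh had 106 and 31.3 CPM in stimulated KLF2- cells, against 59.9 and 61.8 CPM in unstimulated ones, and Shmt2 had 117 and 33.8 CPM in stimulated KLF2- cells, against 77.5 and 68.5 CPM in unstimulated ones. In each, replicate 3 was above both unstimulated libraries and replicate 4 below both. Shmt1 differed in that both stimulated libraries were higher, with 37.3 and 14.7 CPM in stimulated KLF2- cells, against 8.89 and 9.44 CPM in unstimulated ones. Mthfd1 had 73.0 and 21.3 CPM in stimulated KLF2- cells, against 39.6 and 41.3 CPM in unstimulated ones, and Mthfd2 had 72.6 and 43.5 CPM in stimulated KLF2- cells, against 64.1 and 66.3 CPM in unstimulated ones. Psph had 40.0 and 17.97 CPM in stimulated KLF2- cells, against 36.0 and 36.6 CPM in unstimulated ones. Mthfd1, Mthfd2 and Psph split between the replicates as Psat1 did. Mthfd1l had 31.7 and 23.6 CPM in stimulated KLF2- cells, against 22.4 and 31.3 CPM in unstimulated ones, its replicate 4 falling between the unstimulated libraries.

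Srm, Slc7a5 and Asns split in the same way. Srm had 65.0 and 10.8 CPM in stimulated KLF2- cells, against 20.6 and 20.8 CPM in unstimulated ones. Slc7a5 had 78.1 and 6.75 CPM in stimulated KLF2- cells, against 21.2 and 25.9 CPM in unstimulated ones. Asns had 29.1 and 6.53 CPM in stimulated KLF2- cells, against 14.8 and 13.4 CPM in unstimulated ones. Odc1 did not follow Srm, with 123 and 176 CPM in stimulated KLF2- cells, against 186 and 194 CPM in unstimulated ones, both stimulated libraries being below both unstimulated ones. Its mean TPM was 104 in stimulated KLF2- cells, against 98.7 in unstimulated ones. Ahcy had 30.004 and 15.2 CPM in stimulated KLF2- cells, against 28.7 and 30.9 CPM in unstimulated ones. Mat2a had 320.0 and 183 CPM in stimulated KLF2- cells, against 351 and 304 CPM in unstimulated ones. For both, replicate 3 lay between the unstimulated libraries and replicate 4 below them. Amd1 had 66.8 and 59.6 CPM in stimulated KLF2- cells, against 61.9 and 53.9 CPM in unstimulated ones, and its groups overlapped. Its mean TPM was 34.1 in stimulated KLF2- cells, against 23.9 in unstimulated ones.

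Among the aminotransferases Got1 had 56.5 and 36.5 CPM in stimulated KLF2- cells, against 77.5 and 61.2 CPM in unstimulated ones, and Got2 had 148 and 117 CPM in stimulated KLF2- cells, against 135 and 136 CPM in unstimulated ones. In CPM both Got1 values with stimulus were the lower ones, while Got2 split between replicates. On the TPM scale the mean of Got2 was 95.6 in stimulated KLF2- cells, against 75.3 in unstimulated ones. Oat had 88.1 and 58.4 CPM in stimulated KLF2- cells, against 94.1 and 108 CPM in unstimulated ones. Bcat2 had 32.3 and 26.7 CPM in stimulated KLF2- cells, against 36.7 and 41.5 CPM in unstimulated ones. Glud1 had 114 and 127 CPM in stimulated KLF2- cells, against 191 and 193 CPM in unstimulated ones. For these 3, too, both stimulated libraries were below both unstimulated ones in CPM. The mean TPM of Bcat2 was 28.9 in stimulated KLF2- cells, against 29.3 in unstimulated ones. Aldh18a1 had 99.6 and 55.4 CPM in stimulated KLF2- cells, against 89.5 and 83.0 CPM in unstimulated ones. Pycr1 had 3.63 and 0.545 CPM in stimulated KLF2- cells, against 0.930 and 2.03 CPM in unstimulated ones. Both proline enzymes were above the unstimulated range in replicate 3 and below it in replicate 4. Bcat1 had 19.5 and 9.26 CPM in stimulated KLF2- cells, against 7.67 and 5.43 CPM in unstimulated ones. Gls2 had 11.1 and 14.4 CPM in stimulated KLF2- cells, against 5.58 and 6.44 CPM in unstimulated ones. Gpt2 had 34.4 and 36.5 CPM in stimulated KLF2- cells, against 23.8 and 21.1 CPM in unstimulated ones. Bcat1, Gls2 and Gpt2 were thus higher in both stimulated libraries, though background reads made up part of each. The expected background was 50.4% and 163% of the Bcat1 reads in stimulated KLF2- cells, against 100.05% and 132% in unstimulated ones, a value over 100% meaning fewer reads than the background expected. For Gls2 it was 27.8% and 33.0% with stimulus, against 43.3% and 34.9% without, and for Gpt2 18.1% and 26.2%, against 20.4% and 21.5%.

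Of the transporters, Slc3a2 had 158 and 99.1 CPM in stimulated KLF2- cells, against 155 and 179 CPM in unstimulated ones. Slc1a5 had 286 and 201 CPM in stimulated KLF2- cells, against 284 and 325 CPM in unstimulated ones. In both, replicate 4 was below the unstimulated range. Slc38a1 had 140.5 and 99.5 CPM in stimulated KLF2- cells, against 167 and 159 CPM in unstimulated ones, and Slc38a2 had 248 and 249 CPM in stimulated KLF2- cells, against 290.1 and 295 CPM in unstimulated ones. In CPM Slc38a1 and Slc38a2 were lower in both stimulated libraries. On the TPM scale the mean of Slc38a2 was 93.0 in stimulated KLF2- cells, against 83.1 in unstimulated ones. Slc7a1 was the carrier higher in both, with 34.5 and 34.6 CPM in stimulated KLF2- cells, against 18.7 and 24.4 CPM in unstimulated ones, and Slc7a6 had 49.5 and 40.5 CPM in stimulated KLF2- cells, against 43.5 and 48.8 CPM in unstimulated ones. Slc7a11 had 16.2 and 25.1 CPM in stimulated KLF2- cells, against 17.1 and 18.3 CPM in unstimulated ones, replicate 4 being the highest of the 4. Expected background was up to 71.0% of the Slc7a11 reads in stimulated and 52.6% in unstimulated KLF2- cells. For Slc7a1 it was up to 39.8% and 37.6%. In the ATF4 axis Atf4 had 69.5 and 48.7 CPM in stimulated KLF2- cells, against 80.0 and 84.2 CPM in unstimulated ones. Ddit3 had 21.1 and 6.86 CPM in stimulated KLF2- cells, against 24.8 and 22.6 CPM in unstimulated ones. Trib3 had 7.17 and 7.08 CPM in stimulated KLF2- cells, against 12.5 and 15.6 CPM in unstimulated ones. These 3 were lower in both stimulated libraries in CPM. Atf5 had 3.79 and 0.762 CPM in stimulated KLF2- cells, against 3.20 and 1.78 CPM in unstimulated ones. Chac1 had 2.64 and 0.762 CPM in stimulated KLF2- cells, against 0.755 and 1.62 CPM in unstimulated ones. For both, replicate 3 was the higher and replicate 4 the lower of the stimulated libraries.

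Without replicate 4, where the lone stimulated KLF2- library is assumed to vary like the other groups, 3 members rose in KLF2- cells, against 0.522% of all genes. They were Psat1 (1.79 ± 0.19, edgeR adjusted p = 0.0067), Shmt1 (2.02 ± 0.20, adjusted p = 0.0064) and Srm (1.65 ± 0.22, adjusted p = 0.014). In the corrected fit without it 9 members were called higher, against 1.73% of genes: Slc7a5, Phgdh, Psat1, Shmt1, Shmt2, Mthfd1, Asns and Srm, of which 5 are serine and one-carbon enzymes, and Bcat1, which is not read as a rise because its expected background reached or passed its reads in both unstimulated KLF2- libraries. With the replicate number as a block and all libraries kept, 2 members were called higher, against 1.62% of genes. They were Shmt1 (1.399 ± 0.28, edgeR adjusted p = 0.0003) and Bcat1 (1.07 ± 0.30, adjusted p = 0.021). The Bcat1 value comes from deposited counts with the same background and is likewise not read as a rise.

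The difference between the responses, KLF2+ minus KLF2-, was tested in the same fit. It was called positive for 20 members, against 20.3% of all genes, and negative for 1 (Slc7a11), 21 of 38 in all, against 35.8%, with medians of 1.53 over members and -0.09 over all genes. The T cell identity genes had a median difference of 0.89 as deposited and -0.07 in the corrected fit. Of 12 macrophage genes 10 had a lower response in KLF2+ cells (median -4.30) and 6 in the corrected fit (median -5.35), and their part in the members' values was not tested. In the corrected fit 5 members remained, Mthfd2 (1.25 ± 0.24), Ahcy (1.61 ± 0.39), Got1 (1.44 ± 0.25), Got2 (0.91 ± 0.16) and Oat (0.90 ± 0.21), all positive, against 3.58% of genes called positive and 11.8% in either direction (edgeR adjusted p from 0.035 to 0.045). As deposited, all 8 serine and one-carbon enzymes responded more in KLF2+ cells, from 1.71 (Mthfd1l) to 2.35 (Psat1), with edgeR adjusted p from 0.012 to 0.043. Asns had the largest called difference, 2.82 ± 0.68 (edgeR adjusted p = 0.021), and Odc1 had 2.30 ± 0.39 (adjusted p = 0.013). Slc7a5 and Srm, high in stimulated KLF2- replicate 3, were not called (1.31 ± 1.02 and 1.61 ± 0.79, edgeR adjusted p = 0.3 and 0.12). These calls rested on single libraries: the count was 0 without either KLF2- unstimulated library (21 and 22 members with an unadjusted p under 0.05 by edgeR without replicate 3 and 4, against 35.9% and 34.0% of all genes). It was 3 without KLF2+ unstimulated replicate 1, against 2.04% of genes, and 10 without KLF2+ stimulated replicate 2, against 8.88%. Without either KLF2- unstimulated library almost no gene of the whole table was called for this difference. With the replicate number as a block the count of members was 29, against 56.7%. Without stimulated KLF2- replicate 4 it was 18, against 12.9% of genes, Slc7a11, Glud1 and Slc3a2 losing their calls. The 8 serine and one-carbon differences then ran from 1.37 (Shmt1) to 1.84 (Mthfd2), and that of Asns was 2.15 ± 0.31. In the corrected fit without that library 8 members were called, against 7.17% of genes: Mthfd2, Phgdh, Ahcy, Got1, Got2, Asns and Odc1, all positive, and Bcat1, whose corrected value is not read. Oat was not called there (0.77 ± 0.19, edgeR adjusted p = 0.06).

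Between the stimulated populations, KLF2+ cells were higher than KLF2- cells for 33 members, against 35.5% of all genes, and lower for 1 (Slc7a11), 34 of 38, but 75.2% of all genes tested were called in this comparison. The median was 2.02 over members and -0.19 over all genes. The T cell identity genes had a median of 1.60 here, with 10 of 10 called higher. All 5 dendritic cell genes were called, 4 of them lower (median -2.55, and -3.85 corrected), and summed to 24.7 and 22.0 CPM in stimulated KLF2+ cells, against 93.2 and 131 CPM in stimulated KLF2- cells. Of 12 macrophage genes 7 were lower and 2 higher, and of 6 B cell genes 3 were higher. The part of these cell types in the members' values was not tested. In the corrected fit, where 4 of those 10 were higher and 1 lower, 18 members were higher, against 16.0% of genes, and 3 lower, 21 of 38, against 54.5%, with medians of 0.85 and -0.47. All 8 serine and one-carbon enzymes were higher in both fits, from 2.34 (Mthfd2) to 3.48 (Psat1) as deposited and from 1.13 (Mthfd2) to 2.37 (Psat1) corrected (edgeR adjusted p from 0.0024 to 0.025 corrected). Asns was higher by 2.30 ± 0.63, Srm by 1.92 ± 0.59 and Ahcy by 2.01 ± 0.29 in the corrected fit (edgeR adjusted p = 0.018, 0.028 and 0.0022). Atf4 was higher by 2.02 ± 0.24 as deposited and 0.79 ± 0.13 corrected (edgeR adjusted p = 0.00028 and 0.0027), and Trib3 by 1.97 ± 0.33 and 1.53 ± 0.36. Without stimulated KLF2- replicate 4 all 8 serine and one-carbon enzymes stayed called in both fits, with smaller values of 1.95 (Mthfd1) to 2.73 (Psat1) as deposited and 0.86 (Mthfd1) to 1.62 (Psat1) corrected. Corrected values without that library were 1.52 ± 0.19 for Asns, 1.16 ± 0.15 for Srm and 1.61 ± 0.19 for Ahcy, all called. Atf4 had 1.80 ± 0.23 as deposited and 0.68 ± 0.12 corrected without it, and Trib3 had 1.95 ± 0.41 and 1.41 ± 0.41, also called.

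Several members changed sign with the scale in this comparison. Slc38a2 was higher in stimulated KLF2+ cells as deposited (0.58 ± 0.20, edgeR adjusted p = 0.022) and lower in the corrected fit (-0.72 ± 0.19, adjusted p = 0.015). Slc1a5, Slc7a6, Glud1 and Amd1 were called higher as deposited, with negative and uncalled corrected values of -0.09, -0.14, -0.22 and -0.10. Slc7a11 was lower in both fits (-1.45 ± 0.32 and -1.44 ± 0.51, edgeR adjusted p = 0.003 and 0.044), and Gls2 was lower in the corrected fit alone (-1.79 ± 0.62, adjusted p = 0.042; -0.86 ± 0.40 as deposited). Without stimulated KLF2- replicate 4, 32 members were called, against 60.1% of genes, and 20 in the corrected fit, against 44.0%. In that corrected fit Slc7a11 and Gls2 were not called (-0.88 ± 0.46 and -1.46 ± 0.71, edgeR adjusted p = 0.16 and 0.13), and Slc38a2 remained lower (-0.54 ± 0.18). Psat1, Shmt1, Asns and Ahcy were among 16 members called higher in each of the 16 alternatives that could be fitted.

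Without stimulus KLF2+ and KLF2- cells were not distinguished in these genes by edgeR: 0 of 38 were called in either fit, against 2.32% of all genes (4.02% corrected). By an unadjusted p under 0.05 there were 14 members as deposited, against 19.2% of all genes, and 9 corrected, against 20.3%. DESeq2 called 5 (Slc1a5, Phgdh, Mthfd1l, Trib3, Mat2a), all higher in KLF2+ cells, against 7.62% of genes. The median was 0.48 over members, beside -0.11 over all genes and 0.71 over the T cell identity genes. Both KLF2+ libraries lay above both KLF2- ones for 26 members, against 26.1% of all genes, below for 4, against 32.6%, and overlapped for 8. Srm had 49.9 and 61.8 CPM in unstimulated KLF2+ cells, against 20.6 and 20.8 CPM in unstimulated KLF2- cells (1.43 ± 0.57, edgeR adjusted p = 0.22). Trib3 had 31.8 and 40.0 CPM in unstimulated KLF2+ cells, against 12.5 and 15.6 CPM in unstimulated KLF2- cells (1.35 ± 0.31, edgeR adjusted p = 0.056). The Psat1 libraries also did not overlap, with 52.4 and 49.4 CPM in KLF2+ cells, against 21.4 and 25.4 CPM in KLF2- cells (1.12 ± 0.56, edgeR adjusted p = 0.3). Srm, Psat1 and Trib3 were called, with Phgdh and Shmt1, in the fit without stimulated KLF2- replicate 4 (5 members, all higher in KLF2+ cells, against 2.28% of genes), which lies outside this comparison and alters the shared estimate of spread. In the same 2 groups macrophage genes summed to 887 and 1654 CPM in KLF2+ cells, against 54.7 and 69.9 CPM in KLF2- cells, and their part in these values was not tested. Of the other pathway genes 2 were called, both lower in KLF2+ cells. Azin2, an antizyme inhibitor, had 3.55 and 1.82 CPM in KLF2+ cells, against 62.0 and 44.5 CPM in KLF2- cells (-4.32 ± 0.54, edgeR adjusted p = 0.0045). Ahcyl2, a relative of Ahcy, differed by -1.21 ± 0.24 (adjusted p = 0.033).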

How the data were processed

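RNA of 8 libraries was prepared with a stranded low-input kit, per the labels' protocols. The authors deposited 1 table of estimated counts per gene over exons, whose values need not be whole, and 1 table of TPM, per the file headers. Per the submitters' processing notes, STAR 2.7.9, HOMER 4.11, SAMtools and DESeq2 were used with mm10 (GRCm38). The strand setting of the counting is not given in the sources used here, and up to 15.95% of a member's exon bases (Bcat2) overlap a gene on the opposite strand. Processed copies of Amd1, Glud1, Got2, Oat and Phgdh are annotated in GENCODE, and how reads that match several copies were counted is not given in the sources used here. The deposited TPM values of a library were used to compare levels between genes, for sums and group means where named, and in the limma alternatives.

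Estimated counts were rounded, then tested with edgeR 4.0.16 under R 4.3.3 (TMM, filterByExpr, quasi-likelihood F test), 1 coefficient per group over all 8 libraries (4 residual degrees of freedom). SE was taken as |log2 fold change| over the root of the F statistic. For the corrected fit, reads per kb over 1464 olfactory and vomeronasal receptor genes set the expected background of a gene from its exon length, which was taken off library by library, with TMM factors from genes of at least 50 CPM. Alternatives used DESeq2 1.42.0, limma 3.58.1 on log2(TPM + 1) and log2(TPM + 0.1), no low-count filter, each library left out, and the replicate number as a block. Replicate numbers may link the stimulated and unstimulated library of a population. Deviations from group means correlated at 0.580 in KLF2+ and 0.424 in KLF2- cells over 5241 genes. This is a hint from the data and not from the labels, so the pairing entered only the block alternative. The main fit and the other alternatives ignore it. The script was tested on simulated counts. Every member called in at least 1 comparison is given with its levels. The members, the pathway lists and the tests were chosen with earlier results of these data known. A planned comparison of protein sequences was not made.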

Additional observations from a re-analysis of the deposited data

Results flagged for a closer look

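The response to stimulation was larger in KLF2+ than in KLF2- cells, by a test of the difference itself (KLF2+ response minus KLF2- response, log2 scale, edgeR adjusted p under 0.05), for 20 genes and smaller for 1. Among serine and one-carbon enzymes the difference was 2.18 for Phgdh, 2.35 for Psat1, 1.99 for Psph, 1.86 for Shmt1, 2.19 for Shmt2, 2.08 for Mthfd1, 1.71 for Mthfd1l and 2.15 for Mthfd2. In the ATF4 axis the difference was 1.32 for Atf4 and 2.82 for Asns. Among glutamate, proline, aspartate and branched-chain enzymes the difference was 1.80 for Oat, 0.88 for Glud1, 2.30 for Got1, 1.86 for Got2, 1.76 for Bcat1 and 1.45 for Bcat2. The Glud1 difference changed sign with the setting, running from -0.18 to 1.11. Expected background was up to 132% of the Bcat1 reads in unstimulated KLF2- cells, so the Bcat1 value is not read as a difference. Among methionine cycle and polyamine enzymes the difference was 2.34 for Ahcy and 2.30 for Odc1. Among transporters the difference was 1.31 for Slc3a2, -1.47 for Slc7a11 and 1.32 for Slc38a1. None of these calls held without either unstimulated KLF2- library, where almost no gene of the whole table was called. In the corrected fit the calls of Mthfd2, Ahcy, Got1, Got2 and Oat held. Stimulated KLF2- replicate 4, which had activation and division genes at the unstimulated level, enters each difference, and 18 members were called without it, those of Slc7a11, Glud1 and Slc3a2 not.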

How the results depend on the processing

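Of 38 members, 30 were called in the KLF2+ response by edgeR on deposited counts, 18 after background subtraction, 19 when scaling used genes over a mean of 50 CPM, and 19 by limma with a pseudocount of 1. Fits with background subtracted also used that 50 CPM scaling, so their counts reflect both steps. In the KLF2- response the count was 0, with 1 by DESeq2 and 9 with background subtracted and without stimulated KLF2- replicate 4. Between unstimulated populations it was 0, with 1 under DESeq2's size factors, 5 by DESeq2, 1 without the low-count filter and 6 with background subtracted and without stimulated KLF2- replicate 4. Between stimulated populations it was 34, with 21 after background subtraction and 20 also without that library. For the difference in response it was 21, with 5 after background subtraction, 9 under the 50 CPM scaling, 9 and 11 by limma with pseudocounts of 1 and 0.1, and 8 with background subtracted and without stimulated KLF2- replicate 4. Leaving out 1 library at a time, the counts ranged from 12 to 31 for the KLF2+ response, 0 to 3 for the KLF2- response, 0 to 5 between unstimulated populations, 32 to 35 between stimulated ones and 0 to 28 for the difference. The share of all genes called also moved with the library left out, so these ranges alone are no result about the members. The replicate number as a block could be fitted for the responses and their difference but not between populations. The counts were then 31, 2 and 29, against 56.7%, 4.02% and 56.7% of all genes. In the KLF2+ response, 40.9% of all genes were called under the 50 CPM scaling and 24.4% by limma with a pseudocount of 1. For the difference, 32% were called under that scaling, and 29.4% and 33.1% by limma with pseudocounts of 1 and 0.1. In the same fits, 5.31%, 4.25% and 4.44% were called higher. Between unstimulated populations, 2.2% were called under DESeq2's size factors and 2.69% without the low-count filter.

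With background subtracted, the log2 fold change changed sign against the deposited-count fit for Slc1a5 -0.41 in the KLF2+ response, Slc1a5 -0.087, Slc7a6 -0.14, Slc38a2 -0.72, Glud1 -0.22 and Amd1 -0.097 between stimulated populations and for Glud1 -0.082 and Bcat1 -6.40 in the difference in response. Under the 50 CPM scaling, the log2 fold change changed sign against the deposited-count fit for Slc7a1 -0.32, Slc7a6 -0.25, Slc38a2 -0.62, Glud1 -0.14, Gpt2 -1.19 and Amd1 -0.081 between stimulated populations and for Glud1 -0.017 in the difference in response. By limma with a pseudocount of 1 TPM, the log2 fold change changed sign against the deposited-count fit for Slc1a5 -0.55 and Slc38a2 -0.56 in the KLF2+ response, Slc1a5 -0.22, Slc7a1 -0.49, Slc7a6 -0.46, Slc38a2 -0.85, Sesn2 -1.02, Glud1 -0.36, Gpt2 -1.26 and Amd1 -0.33 between stimulated populations and for Slc1a5 -0.60 and Glud1 -0.18 in the difference in response. By limma with a pseudocount of 0.1 TPM, the log2 fold change changed sign against the deposited-count fit for Slc1a5 -0.56, Slc38a2 -0.57 and Glud1 -0.47 in the KLF2+ response, Slc1a5 -0.22, Slc7a1 -0.56, Slc7a6 -0.49, Slc38a2 -0.86, Sesn2 -1.12, Glud1 -0.37, Gpt2 -1.42 and Amd1 -0.34 between stimulated populations and for Slc1a5 -0.61, Slc38a2 -0.73 and Glud1 -0.18 in the difference in response. With background subtracted and without stimulated KLF2- replicate 4 (chosen after seeing the data), the log2 fold change changed sign against the deposited-count fit for Slc1a5 -0.43, Slc38a2 -0.45 and Glud1 -0.34 in the KLF2+ response, Slc1a5 -0.17, Slc7a6 -0.19, Slc38a2 -0.54, Ddit3 -0.32 and Amd1 -0.040 between stimulated populations and for Bcat1 -7.50 in the difference in response.

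The corrected Bcat1 values rest on libraries in which its background-subtracted reads were at 0 and are not fold changes to read. The cause of the other changes was not tested. In Atf5, Chac1, Pycr1 and Bcat1 the expected background reached or passed the reads in at least 1 library. Only 2 libraries a group and 4 residual degrees of freedom stand behind each test with 1 coefficient per group over all libraries. Fewer stand behind the fits with a library left out or with the replicate number as a block.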
